A study of Mus musculus with 9 samples.

Results

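Transcripts of 40 marker genes of endothelial cells, macrophages and melanocytes were followed in cultures labelled as valvular interstitial cells, the fibroblast-like cells of the heart valve leaflet. The genes were taken from a fixed list of symbols, 16 for endothelial cells, 17 for macrophages and other leukocytes and 7 for melanocytes and glia, and all 40 were found among the 51810 genes measured. The list names genes and applies no threshold to their values, but it was chosen with earlier results of these data known. The values serve as a reading of culture composition, although bulk RNA does not show which cells made a transcript.

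RNA was sequenced in 9 libraries from C57BL/6J mice, whose aortic and mitral valves supplied the cells. All cultures grew in DMEM with 10% serum, insulin, EGF and basic FGF. For 24 h, 3 received low-density lipoprotein (LDL), 3 received oxidised LDL (oxLDL), both at 50 ug/mL, and 3 received buffer alone (Control, which one label calls untreated). Sample titles number the libraries of each treatment 1 to 3, and no source used here says whether a number is an animal, an isolation or a day. The p-values therefore reflect only how far these samples lay apart, possibly for technical reasons, and no animal age, sex or pooling is given. Levels are TPM, each gene's share of a library's transcripts after correction for gene length, so genes can be compared with each other but the number of reads behind a value is unknown.

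Valve leaflets are sheets of interstitial cells covered by endothelium. Endothelial cells hold together through VE-cadherin (Cdh5) and PECAM-1 (Pecam1) and respond to VEGF and angiopoietins through receptor tyrosine kinases. Resident macrophages lie among the interstitial cells, depend on the CSF-1 receptor (Csf1r) and are major producers of complement C1q. Mouse heart valves also hold melanocytes, which derive from the neural crest and make pigment with the enzymes Tyr, Tyrp1 and Dct under the transcription factor Mitf.

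In the list of 20 interstitial-cell and fibroblast markers, every gene was above 0 in all 9 libraries, with mean levels from 95.4 to 8708 TPM. The 4 highest were S100a4 (mean 8708 TPM), the intermediate filament gene Vim (5584 TPM), the proteoglycan gene Bgn (3539 TPM) and the matrix gene Sparc (2825 TPM). Their sum ran from 28602 to 34517 TPM across libraries. The defining markers of lymphocytes, red cells and epithelium were near 0. Of 13 lymphocyte, mast cell and erythroid genes 12 averaged at most 0.276 TPM, and of 7 epithelial and mesothelial genes 5 averaged at most 0.626 TPM. Each library listed 20985 to 21433 genes above 0. Libraries with the same number deviated together from their treatment means across genes, at correlations of 0.172 to 0.497 in 9 pairs against -0.309 to 0.13 in 18 pairs with different numbers. Treatments are compared below without the number, because no label states a pairing, and again with the number as a block that pairs the samples.

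None of the 35 markers that averaged at least 1 TPM, the minimum for testing, passed the test between treatments, with or without the number as a block. In the same 35 genes, 24 differed between replicate numbers (limma's F test on log2(TPM + 1), adjusted over all 13495 genes tested, threshold 0.05), which is 68.6% against 11.7% of all genes tested. In each of the 24 the libraries of number 2 had the lowest mean, and genes that passed with number 2 lowest made 3.79% of all genes tested. The 24 were 11 of 16 endothelial genes, 12 of 15 tested macrophage genes and 1 of 4 tested melanocyte genes. Genes of one cell type may share the cells that make them and are not independent of each other. The list was also chosen with earlier results of these data known, so these counts describe the lists. In bulk RNA, fewer cells of a type, less RNA per cell and a changed level in the interstitial cells cannot be told apart.

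The 16 endothelial genes together came to 951, 957 and 926 TPM in the Control, LDL and oxLDL libraries of number 1. In number 2 their sum was 604, 606 and 572 TPM, and in number 3 it was 781, 667 and 705 TPM, in the same order of treatments. The 3 numbers did not overlap, with means of 945 ± 16.7, 594 ± 19.0 and 718 ± 58.1 TPM (SD, n = 3 each), and number 1 was 1.59 times number 2. Treatment means were 779 ± 174 TPM in Control, 743 ± 188 TPM with LDL and 734 ± 179 TPM with oxLDL (SD, n = 3 each). Within numbers 1, 2 and 3 the sum under oxLDL was 0.973, 0.947 and 0.902 times Control, lower in 3 of 3 pairs, and no test was run on a sum. Eng alone made 50.7% of the sum.

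For the 17 macrophage genes the sum was 586, 912 and 643 TPM in number 1, 285, 280.0 and 123 TPM in number 2 and 566, 728 and 949.9 TPM in number 3, again as Control, LDL and oxLDL. Number 2 lay below all libraries of numbers 1 and 3, which overlapped each other. The means were 714 ± 174, 229 ± 92.3 and 748 ± 193 TPM (SD, n = 3 each), so that numbers 1 and 3 were 3.11 and 3.26 times number 2. The lowest library, oxLDL of number 2, and the highest, oxLDL of number 3, carried the same treatment and stood 7.74-fold apart. Lyz2 made 60% of this sum.

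The 7 melanocyte and glial genes reached 15.4, 23.3 and 13.8 TPM in number 1, 7.37, 9.38 and 6.06 TPM in number 2 and 8.21, 16.2 and 19.9 TPM in number 3. Here the numbers overlapped, since Control of number 3 fell below LDL of number 2. As a percentage of the summed interstitial markers, the endothelial genes came to 1.91 to 2.86%, the macrophage genes to 0.418 to 3.05% and the melanocyte genes to 0.0206 to 0.0696%. Without Eng, the endothelial percentage was 0.782 to 1.67%, and without Lyz2 the macrophage percentage was 0.177 to 1.39%. These are ratios of transcript shares and not of cell numbers. The interstitial sum itself varied by 1.21-fold between the lowest and the highest library, with means of 33760.4 ± 665, 30454 ± 1135 and 30015 ± 1301 TPM (SD, n = 3 each) for numbers 1, 2 and 3.

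**Figure D1:**
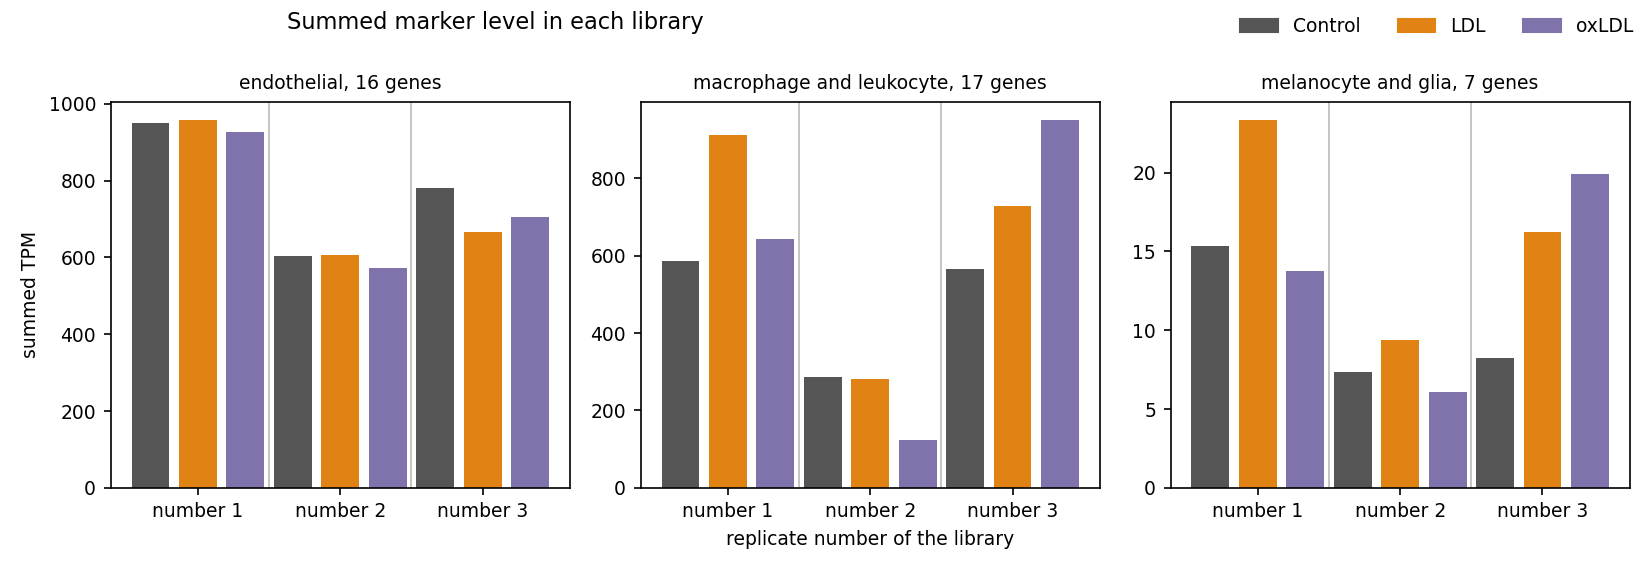
Summed TPM of the endothelial, macrophage and melanocyte marker lists as bars from 0, 1 panel per list, for each of the 9 libraries in order of replicate number and coloured by treatment. Number 2 has the lowest mean in each panel, and oxLDL of number 2 stands at 123 TPM for the macrophage genes.

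The 40 genes differed in level from 0.0178 to 381 TPM on average. Only Eng, Lyz2 and Egfl7 averaged at least 100 TPM, 14 genes averaged 10 to under 100 TPM, 18 averaged 1 to under 10 TPM, and Pmel, Sox10, Tyr, Cx3cr1 and Cd163 fell below 1 TPM and were not tested. In 38 of the 40 the value was above 0 in every library. The library with the lowest value carried number 2 for 36 of the 40, against 33.3% of all genes tested. It was the single library oxLDL of number 2 for 29 of the 40 and for 27 of the 35 tested, against 14.5% of all genes tested. Counts out of all members in this paragraph include the genes below 1 TPM, which the shares leave out. The highest library was a number 1 library for 14 of 16 endothelial genes and 5 of 7 melanocyte genes (24.6% of all genes), but a number 3 library for 11 of 17 macrophage genes (47.5% of all genes).

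**Figure D2:**
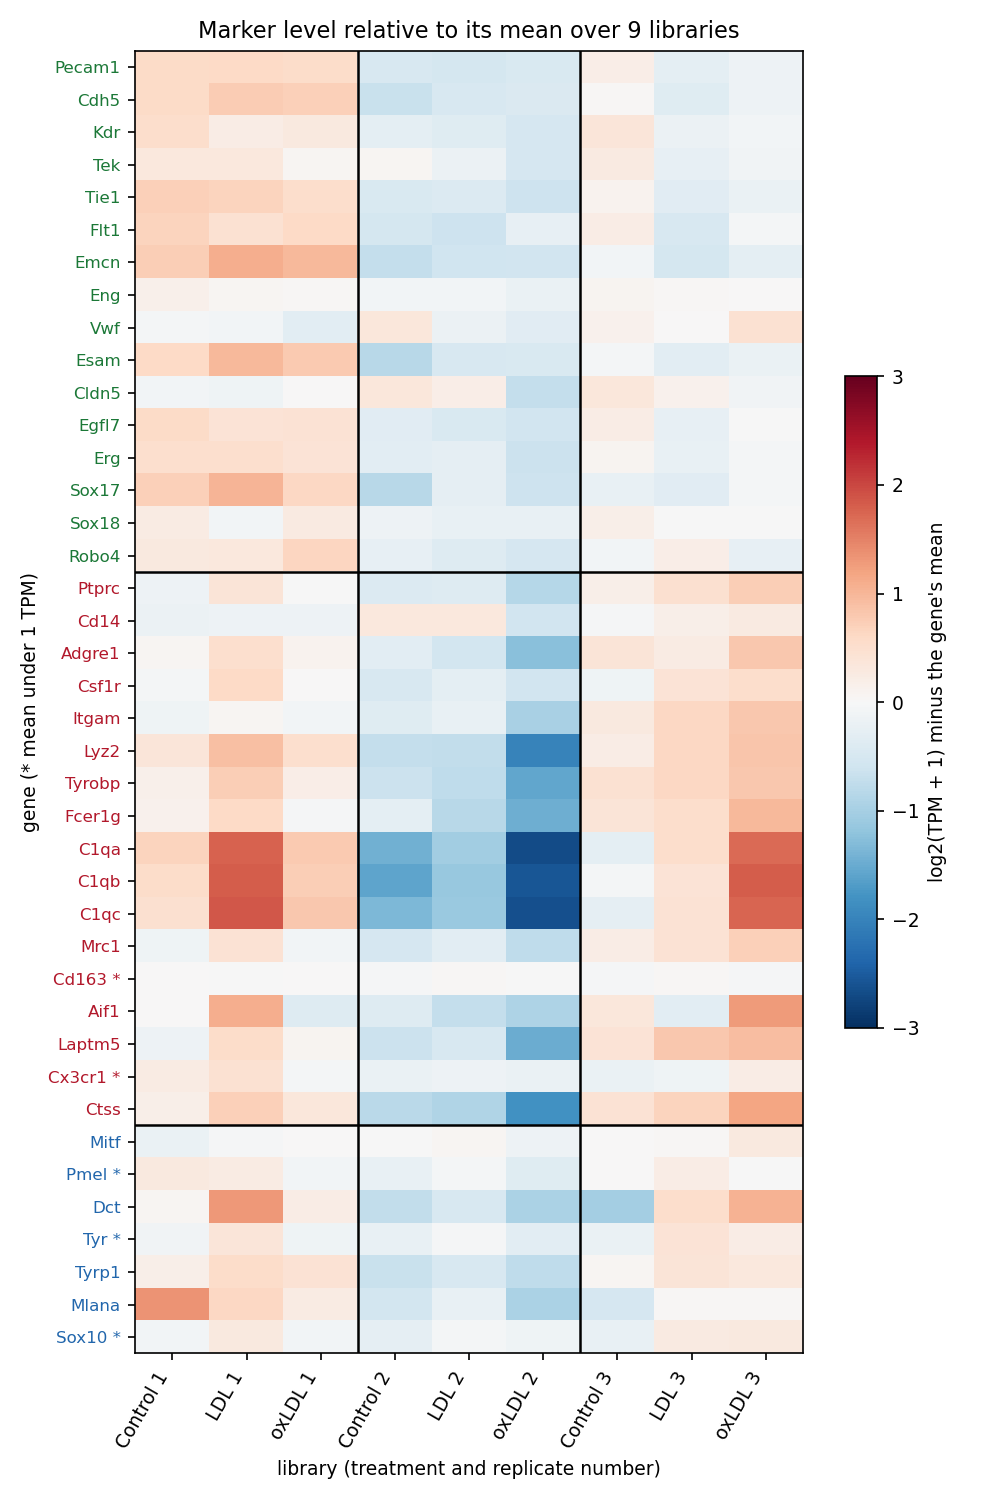
Difference of log2(TPM + 1) from each gene's mean over the 9 libraries, for all 40 markers in rows by class and the libraries in columns by replicate number. The lowest library carries number 2 in 36 of 40 rows, and the 3 C1q genes cover the widest range.

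Of 5 endothelial genes of cell junctions and the cell surface, 4 varied with replicate number. From here on the 3 values within a number are always Control, LDL and oxLDL. Cdh5, the adhesion molecule of endothelial adherens junctions, was at 88.6, 101 and 97.7 TPM with number 1, 36.4, 41.8 and 43.2 TPM with number 2 and 60.4, 45.5 and 52.4 TPM with number 3. Pecam1, an adhesion molecule at endothelial contacts, was at 63.6, 64.9 and 62.9 TPM with number 1, 30.0, 29.2 and 30.7 TPM with number 2 and 49.1, 34.4 and 37.9 TPM with number 3. Both genes ranked the numbers as 1, then 3, then 2, with no overlap between any of the 3, an order that 7 of 16 endothelial genes and 0.874% of all genes tested shared. Emcn, a sialomucin of the endothelial surface, had the highest of the endothelial log2 differences, and its levels were 92.8, 117 and 109 TPM with number 1, 32.9, 36.1 and 36.3 TPM with number 2 and 51.4, 37.9 and 44.6 TPM with number 3. The 3 libraries of number 1 thus averaged 106 ± 12.4 TPM and those of number 2 35.1 ± 1.88 TPM (SD, n = 3 each), a 3.03-fold difference. Esam, an immunoglobulin-family adhesion molecule of endothelium, was at 27.9, 36.5 and 31.9 TPM with number 1, 9.84, 12.7 and 13.0 TPM with number 2 and 17.4, 14.5 and 15.8 TPM with number 3. Cldn5, the tight junction claudin, was at 3.89, 3.72 and 4.22 TPM with number 1, 5.59, 4.98 and 2.15 TPM with number 2 and 5.5, 4.70 and 3.82 TPM with number 3, and its numbers overlapped.

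Limma's F test for replicate number gave adjusted p = 0.00522 for Cdh5, 0.00608 for Pecam1, 0.0044 for Emcn and 0.00522 for Esam. For Cldn5 it gave adjusted p = 0.73. On the log2(TPM + 1) scale, on which changes of low genes are understated, number 1 exceeded number 2 by 1.57 (95% interval 1.27 to 1.87) in Emcn and by 1.22 (95% interval 0.95 to 1.49) in Cdh5. Number 3 exceeded number 2 by 0.33 (95% interval 0.03 to 0.63) in Emcn and by 0.37 (95% interval 0.10 to 0.64) in Cdh5. These intervals are not adjusted for the number of genes.

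Of 6 endothelial receptor genes, 4 passed the test. Tie1, a receptor kinase that pairs with the angiopoietin receptor, was at 27.8, 27.1 and 24.2 TPM with number 1, 11.8, 12.3 and 10.5 TPM with number 2 and 17.9, 12.8 and 14.4 TPM with number 3. Flt1, the VEGF receptor 1, was at 18.5, 15.9 and 17.5 TPM with number 1, 7.62, 6.99 and 9.38 TPM with number 2 and 13.5, 7.84 and 10.9 TPM with number 3. Kdr, the VEGF receptor 2 that carries most of the growth signal, was far lower, at 3.52, 2.68 and 2.89 TPM with number 1, 1.58, 1.46 and 1.23 TPM with number 2 and 3.07, 1.78 and 1.96 TPM with number 3. All 3 varied with replicate number (adjusted p = 0.00522, 0.0111 and 0.0326), and number 2 had the lowest mean in each. Tek, the angiopoietin receptor TIE2, was at 7.50, 7.41 and 6.11 TPM with number 1, 6.11, 5.06 and 3.82 TPM with number 2 and 7.15, 4.69 and 5.31 TPM with number 3, and its variation did not pass the test (adjusted p = 0.109). Robo4, an endothelial roundabout receptor, was at 2.19, 2.27 and 3.11 TPM with number 1, 1.22, 1.01 and 0.85 TPM with number 2 and 1.45, 1.98 and 1.19 TPM with number 3, with adjusted p = 0.0615.

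Eng, a TGF-beta and BMP co-receptor that mesenchymal cells also make, had the highest mean of the 40 genes. Its levels were 421, 399 and 389 TPM with number 1, 357, 357 and 332 TPM with number 2 and 402, 389 and 384 TPM with number 3. It passed the test (adjusted p = 0.0314), but the log2 difference of number 1 from number 2 was only 0.21 (95% interval 0.12 to 0.30), and the lowest and highest library stood 1.27-fold apart. Without Eng, the endothelial sum averaged 542, 245 and 326 TPM in numbers 1, 2 and 3. Part of the Eng gene shares 61 exonic bases with Fpgs on the opposite strand, which this type of library does not separate.

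Of the secreted endothelial products, Egfl7, a matrix-bound angiogenic factor whose gene hosts miR-126, was at 162, 147 and 147 TPM with number 1, 85.7, 79.0 and 73.4 TPM with number 2 and 129, 91.5 and 109 TPM with number 3. It varied with number (adjusted p = 0.00522) in the order 1, 3, 2 without overlap. Its exons overlap those of Gm20532, Mir126a, Mir126b and Agpat2, so its level may hold reads of these. Vwf, the clotting glycoprotein stored in Weibel-Palade bodies, was at 1.92, 1.89 and 1.43 TPM with number 1, 2.87, 1.69 and 1.42 TPM with number 2 and 2.34, 2.08 and 3.17 TPM with number 3. Number 3 lay above number 1 without overlap, number 2 overlapped both, and the test did not pass (adjusted p = 0.396).

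The 3 transcription factors averaged 4.65 to 10.8 TPM. Erg, an ETS factor of endothelial identity, was at 15.2, 15.3 and 14.2 TPM with number 1, 8.13, 8.43 and 6.27 TPM with number 2 and 11.03, 8.76 and 10.0 TPM with number 3. Sox17, a SoxF factor, was at 7.42, 9.48 and 6.94 TPM with number 1, 1.89, 3.32 and 2.34 TPM with number 2 and 3.43, 3.10 and 3.95 TPM with number 3. Both passed the test (adjusted p = 0.0107 and 0.00946), and in Sox17 number 1 averaged 3.16 times number 2. Sox17 shares 804 exonic bases with Gm37587 on the opposite strand. Its relative Sox18 was at 7.53, 5.87 and 7.69 TPM with number 1, 5.54, 5.20 and 5.15 TPM with number 2 and 7.16, 6.18 and 6.11 TPM with number 3, which did not pass (adjusted p = 0.104). Across the 16 endothelial genes the median log2 difference was 0.91 for number 1 over number 2 and 0.35 for number 3 over number 2, beside -0.03 and 0.04 over all genes tested. The unadjusted 95% interval of number 1 minus number 3 lay above 0 in 11 of the 16 and below 0 in 0.

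**Figure D3:**
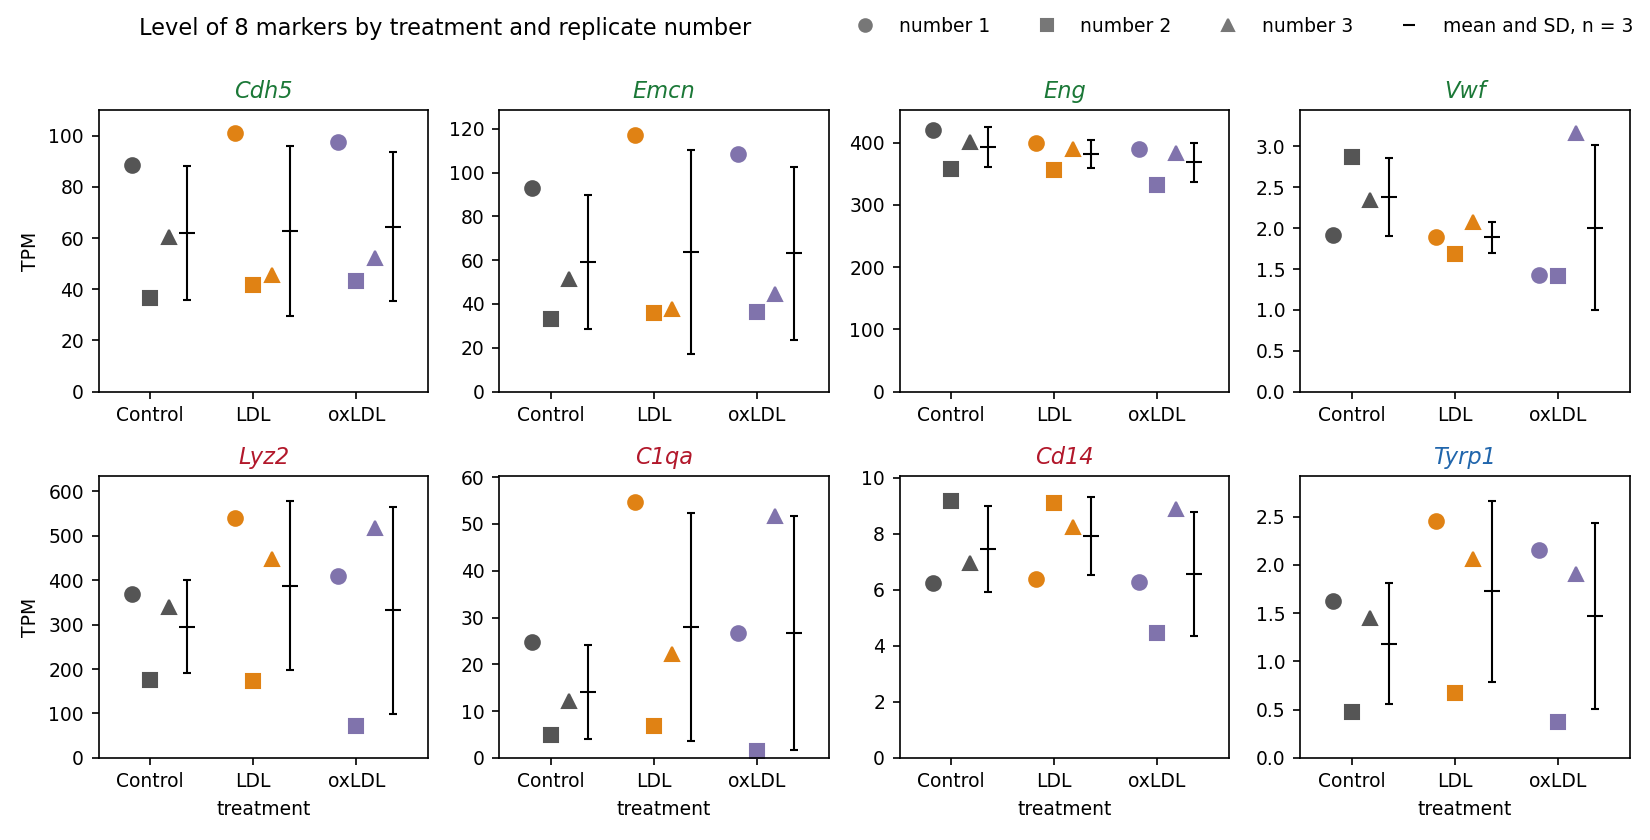
TPM of 8 markers (linear axes from 0, 1 panel per gene) by treatment, with circles, squares and triangles for numbers 1, 2 and 3 and the black bar for the mean and SD of the 3 libraries. Cdh5 is highest in number 1 under each treatment, and Lyz2 is lowest in oxLDL of number 2, at 70.9 TPM.

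Among the macrophage genes the secreted and lysosomal products were highest. Lyz2, lysozyme of macrophages and neutrophils, was at 369.9, 541 and 409 TPM with number 1, 175, 174 and 70.9 TPM with number 2 and 340.1, 447 and 516 TPM with number 3. Number 2 lay below the other numbers, which overlapped, and number 1 and number 3 averaged 3.14 and 3.10 times number 2. Ctss, the lysosomal protease cathepsin S, was at 69.9, 101 and 78.7 TPM with number 1, 34.6, 32.3 and 16.8 TPM with number 2 and 83.6, 98.7 and 140.1 TPM with number 3. The highest and the lowest Ctss library were both given oxLDL and stood 8.32-fold apart. Both genes varied with replicate number (adjusted p = 0.0235 for Lyz2 and 0.0169 for Ctss). In log2 terms number 1 exceeded number 2 by 1.74 (95% interval 0.99 to 2.48) in Lyz2, and number 3 did so by 1.72 (95% interval 0.97 to 2.46).

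The 3 chains of complement C1q showed the widest range between libraries among the tested macrophage genes. Their genes C1qa, C1qb and C1qc lie side by side on chromosome 4, within 18675 bases of the minus strand (GRCm38, positions 136880129 to 136898803). C1qa was at 24.8, 54.6 and 26.7 TPM with number 1, 4.93, 6.89 and 1.54 TPM with number 2 and 12.2, 22.2 and 51.7 TPM with number 3. C1qb was at 17.1, 42.2 and 19.6 TPM with number 1, 3.10, 4.63 and 1.07 TPM with number 2 and 10.9, 15.4 and 42.5 TPM with number 3, and C1qc at 15.97, 42.9 and 20.4 TPM with number 1, 3.78, 4.61 and 0.95 TPM with number 2 and 9.13, 15.5 and 39.6 TPM with number 3. All 3 genes were lowest in oxLDL of number 2, and their 2 highest libraries were LDL of number 1 and oxLDL of number 3. The highest library exceeded the lowest 35.5-fold in C1qa, 39.7-fold in C1qb and 45.2-fold in C1qc. C1qa averaged 35.4 ± 16.7 TPM in number 1, 4.45 ± 2.71 TPM in number 2 and 28.7 ± 20.5 TPM in number 3 (SD, n = 3 each). The F test gave adjusted p = 0.0342, 0.0307 and 0.0396 for the 3, and number 1 exceeded number 2 by a log2 difference of 2.80 (95% interval 1.5 to 4.09) in C1qa.

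The 250 bases before each gene's start were searched, as RefSeq gives them for GRCm38.p6, where 26 of the 40 genes had an entry. The ETS motif GGAAGT, the core bound by PU.1-family and endothelial ETS factors such as Erg, was searched on both strands (ACTTCC on the other). It was held by 6 of 12 macrophage genes, 5 of 10 endothelial genes and 0 of 4 melanocyte genes, against 19.7% of 32851 starts. A gene was counted if any of its starts held the motif, while the percentage is over single starts, so these measures are not alike. The stretches of C1qb and C1qc, which shared their lowest library and their 2 highest libraries, are shown. C1qa shared these libraries too, but its stretch is not shown, so the motif is not described for the whole C1q cluster. It is in capitals as read on the gene's strand, 53 bases before the start of C1qb and 195 before that of C1qc.
C1qb, chr4:136886236-136886265, minus strand: acaggacctgaaACTTCCtgagggcagcag
C1qc, chr4:136893092-136893121, minus strand: gggacggcagacACTTCCtcattttggcac
A match describes these letters and is no evidence that a factor binds there.

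The signalling adaptors of myeloid receptors had the same low number as Lyz2. Tyrobp, the adaptor DAP12, was at 28.3, 43.3 and 29.5 TPM with number 1, 15.9, 14.6 and 7.97 TPM with number 2 and 35.4, 40.1 and 45.6 TPM with number 3. Fcer1g, the Fc receptor gamma chain, was at 24.6, 34.8 and 22.1 TPM with number 1, 18.3, 12.3 and 7.52 TPM with number 2 and 29.6, 33.1 and 45.5 TPM with number 3. In both genes number 2 lay below numbers 1 and 3 (adjusted p = 0.014 and 0.0419). Laptm5, a lysosomal membrane protein of blood cells, was at 8.50, 14.5 and 10.2 TPM with number 1, 5.82, 6.64 and 2.77 TPM with number 2 and 13.1, 17.5 and 19.3 TPM with number 3, also with number 2 lowest (adjusted p = 0.022).

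Surface receptors of macrophages were lower in level, in TPM. Csf1r, the receptor through which CSF-1 and IL-34 keep macrophages alive, was at 5.62, 9.31 and 5.94 TPM with number 1, 3.88, 4.55 and 3.57 TPM with number 2 and 5.30, 8.08 and 8.92 TPM with number 3. Itgam, the integrin chain CD11b, was at 4.86, 5.65 and 5.05 TPM with number 1, 3.97, 4.50 and 2.30 TPM with number 2 and 6.89, 8.95 and 10.2 TPM with number 3. Both passed the test (adjusted p = 0.0453 and 0.0321), each with number 2 lowest by mean. Csf1r shares 873 exonic bases with Hmgxb3 and Itgam 3450 with Gm49368, so part of each level may belong to these genes. Adgre1, the F4/80 antigen, was at 5.18, 7.36 and 5.38 TPM with number 1, 3.74, 3.07 and 1.5 TPM with number 2 and 6.79, 6.02 and 9.37 TPM with number 3, which missed the threshold (adjusted p = 0.052). Ptprc, the pan-leukocyte marker CD45, was at 1.43, 2.51 and 1.68 TPM with number 1, 1.04, 1.07 and 0.50 TPM with number 2 and 2.06, 2.75 and 3.51 TPM with number 3. Mrc1, the mannose receptor CD206, was at 1.60, 2.82 and 1.68 TPM with number 1, 0.99, 1.27 and 0.67 TPM with number 2 and 2.32, 2.84 and 3.64 TPM with number 3. These last 2 passed the test (adjusted p = 0.0457 and 0.0372).

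Cd14, the lipopolysaccharide co-receptor, was 1 of 3 tested macrophage genes that did not pass. It was at 6.25, 6.37 and 6.29 TPM with number 1, 9.17, 9.11 and 4.47 TPM with number 2 and 6.94, 8.25 and 8.88 TPM with number 3 (adjusted p = 0.562). Number 3 lay above number 1 without overlap, and number 2 held both the highest and the lowest library. Its log2 difference between numbers 1 and 2 was -0.18 (95% interval -0.69 to 0.34), against a median of 1.03 over the 15 tested macrophage genes. Aif1, the cytoskeletal protein IBA1, was at 1.22, 3.70 and 0.69 TPM with number 1, 0.70, 0.35 and 0.16 TPM with number 2 and 1.79, 0.78 and 4.34 TPM with number 3 (adjusted p = 0.261). The 2 macrophage genes under 1 TPM were Cx3cr1, the fractalkine receptor, and Cd163, a haemoglobin scavenger receptor of resident macrophages. Cx3cr1 was at 0.37, 0.57 and 0.10 TPM with number 1, 0, 0.04 and 0.01 TPM with number 2 and 0, 0.06 and 0.34 TPM with number 3, and Cd163 reached at most 0.05 TPM in any library. Over the 15 tested genes the median log2 difference of number 3 from number 2 was 1.49. The unadjusted interval of number 1 minus number 3 lay above 0 in 0 of the 15 and below 0 in 1, Itgam.

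Pigment-cell genes were detected at low levels in every library. Dct, dopachrome tautomerase, was the highest of them, at 4.81, 12.7 and 5.47 TPM with number 1, 2.30, 2.99 and 1.89 TPM with number 2 and 1.74, 6.98 and 10.4 TPM with number 3. Tyrp1, the other tyrosinase-related protein, was at 1.63, 2.45 and 2.15 TPM with number 1, 0.47, 0.67 and 0.37 TPM with number 2 and 1.45, 2.06 and 1.90 TPM with number 3. Tyr, tyrosinase itself and the rate-limiting enzyme of melanin synthesis, was at 0.20, 0.67 and 0.17 TPM with number 1, 0.11, 0.25 and 0.04 TPM with number 2 and 0.13, 0.70 and 0.51 TPM with number 3. All 3 enzymes had their lowest mean in number 2. In Tyrp1 number 2 lay below every other library (adjusted p = 0.0116), in Dct Control of number 3 was lower than all 3 of its libraries (adjusted p = 0.136), and Tyr was under the minimum for testing.

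Mlana, a melanosome protein, was at 4.39, 2.28 and 1.52 TPM with number 1, 0.45, 0.82 and 0.10 TPM with number 2 and 0.50, 1.17 and 1.17 TPM with number 3, and Control of number 1 was its highest library. Its adjusted p for replicate number was 0.0619. Pmel, which builds the fibrils of the melanosome, was at 1.10, 1.05 and 0.62 TPM with number 1, 0.48, 0.65 and 0.34 TPM with number 2 and 0.73, 1.02 and 0.71 TPM with number 3. Sox10, the neural crest factor shared by melanocytes and glia, was at 0.60, 1.08 and 0.60 TPM with number 1, 0.41, 0.64 and 0.56 TPM with number 2 and 0.45, 1.04 and 1.07 TPM with number 3. For the last 2, which were not tested, no number stood apart from both others. Mitf, which other cell types also make, was at 2.64, 3.09 and 3.24 TPM with number 1, 3.15, 3.36 and 2.76 TPM with number 2 and 3.21, 3.27 and 4.12 TPM with number 3 (adjusted p = 0.504).

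The promoters of the 3 pigment enzymes are shown because they carry the M-box core CATGTG, the letters through which Mitf acts on pigment genes. The motif, which is a form of the E-box CANNTG, was searched on both strands (CACATG on the other) in the 250 bases before each start. It was held by 3 of 4 melanocyte genes with an entry, 0 of 10 endothelial genes and 3 of 12 macrophage genes, against 12.3% of 32851 starts. Here too a gene was counted if any of its starts held the motif, while the percentage is over single starts. The stretches are from RefSeq for GRCm38.p6, written 5′ to 3′ on the gene's strand with the motif in capitals. It begins 46 bases before the start in Tyrp1, 21 in Tyr, and 232 and 150 in Dct.
Tyrp1, chr4:80834155-80834184, plus strand: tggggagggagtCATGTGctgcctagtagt
Tyr, chr7:87493516-87493545, minus strand: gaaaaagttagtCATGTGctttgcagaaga
Dct, chr14:118052461-118052490, minus strand: gcttggctgggaCACATGagcccaataaag
Dct, chr14:118052379-118052408, minus strand: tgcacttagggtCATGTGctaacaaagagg
The shared letters are a description of the sequence, and the files hold no measure of Mitf binding.

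The order of the numbers was then counted by class. No overlap between number 1 and both other numbers, with number 1 highest, was seen in 10 of 16 endothelial genes, 0 of 15 tested macrophage genes and 1 of 4 tested melanocyte genes, beside 6.98% of all genes tested. Number 2 lay below both others without overlap in 10 of 16, 13 of 15 and 1 of 4, beside 3.76% of all genes tested. Number 3 exceeded number 1 without overlap in 1 of 16, 2 of 15 and 0 of 4, beside 27.1% of all genes tested. The difference between classes was not tested, because genes of a class are not replicates of it.

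**Figure D4:**
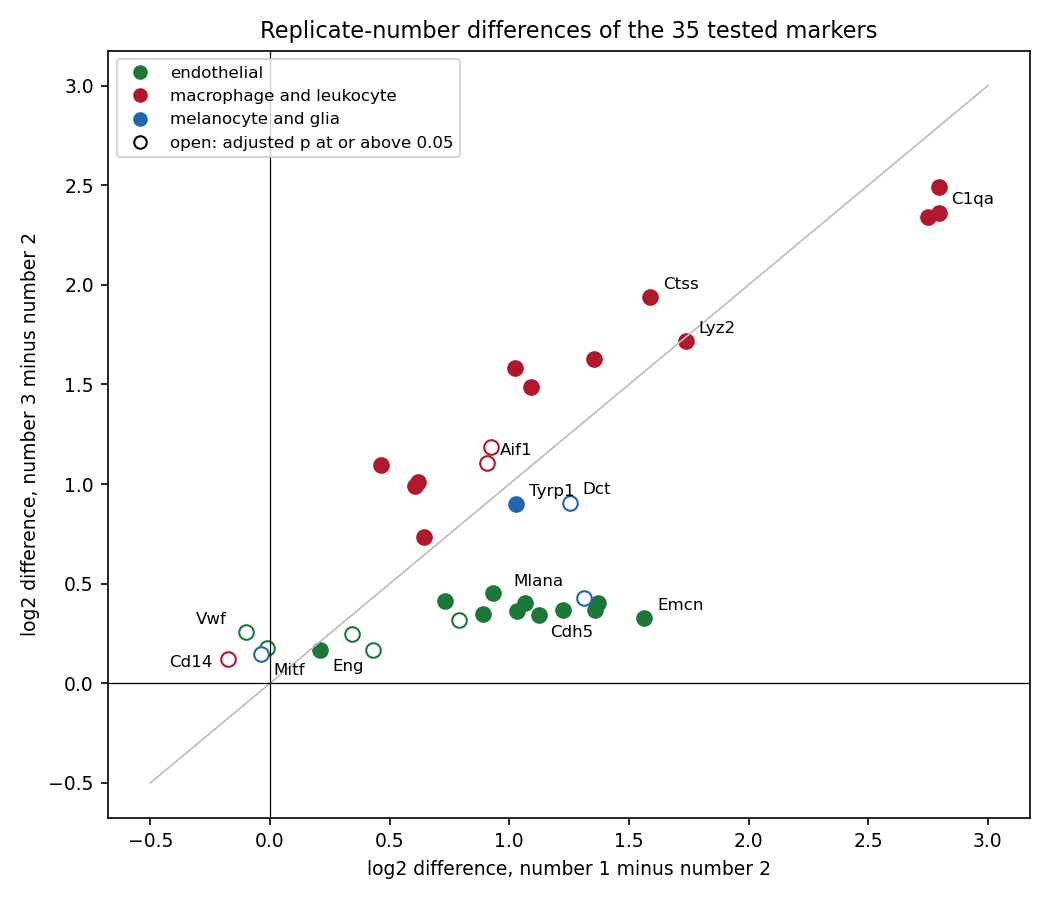
Log2 difference of number 1 minus number 2 (horizontal axis) against number 3 minus number 2 (vertical axis) for each of the 35 tested markers, coloured by class, with open circles for genes whose F test did not pass. Both axes share the number 2 libraries. Most endothelial genes lie under the diagonal line of equal differences at vertical values up to 0.45, and the C1q genes lie at the upper right, at 2.75 to 2.80 on the horizontal axis.

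The number of calls by replicate number fell when any library but oxLDL of number 3 was left out, while the size of the differences changed less. Without oxLDL of number 3 it rose to 27, from 24 with all 9 libraries. With 1 library left out, 5 to 27 of the 35 genes passed, and the 5 endothelial genes Cdh5, Tie1, Emcn, Esam and Egfl7 passed in all 9 such fits. The count was 6 without Control of number 1, 6 without LDL of number 1 and 5 without oxLDL of number 1. It was 9 without LDL of number 2, 15 without oxLDL of number 2 and 13 without LDL of number 3. Of the macrophage genes, 0 passed without Control, LDL or oxLDL of number 1 or without LDL of number 2, and 5 passed without oxLDL of number 2. When all genes above 0 in any library were tested, 10 of the 35 passed, with 0 macrophage genes among them. Over all genes tested, 121 to 1980 passed with 1 library left out, against 1580 with all 9. The 1980 came without oxLDL of number 3, and every other such fit made fewer calls among all genes as well. In the same fits the log2 difference of number 1 from number 2 ran from 0.99 to 1.14 in Pecam1, from 1.06 to 1.62 in Tyrobp and from 2.13 to 3.27 in C1qa. The highest adjusted p was 0.052 in Pecam1, 0.0678 in Tyrobp and 0.129 in C1qa. A gene that stopped passing kept the sign of its difference of number 1 from number 2 in each of these fits, with 0 reversals among called values.

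Treatment was compared next, which asks whether LDL or oxLDL altered the level of any non-interstitial marker. Without the number as a block, limma called 0 of 35 markers for LDL against Control, beside 0.333% of all genes tested, 0 of 35 for oxLDL against Control, beside 0.0148%, and 0 of 35 for oxLDL against LDL, beside 0.104%. At an unadjusted p under 0.05 the counts were also 0, 0 and 0, beside 6.65, 3.86 and 3.91% of all genes. In the fit blocked on replicate number the adjusted counts remained 0, 0 and 0, beside 0.852, 0.126 and 0.259% of the genes tested, and 4, 3 and 1 markers had an unadjusted p under 0.05, beside 13.1, 9.08 and 8.51%. The 3 comparisons share samples and are not independent of each other. In 0 of the 35 tested markers did the 3 libraries of one treatment all lie above the 3 of another. Over all genes tested, 5.61% were separated higher and 5.06% lower with LDL against Control, 3.5 and 3.83% with oxLDL against Control, and 4.11 and 4.2% with oxLDL against LDL.

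Intervals of the treatment differences were wide without the block and narrower with it. For Cdh5 the log2 difference of LDL from Control was -0.01 (95% interval -0.99 to 0.98), and with the replicate block the interval narrowed to -0.28 to 0.26. For oxLDL against Control the block interval of Cdh5 was -0.21 to 0.33. Lyz2 was less well bounded, with 0.31 (95% interval -1.34 to 1.96) for LDL and -0.18 (95% interval -1.83 to 1.47) for oxLDL, and block intervals of -0.43 to 1.06 and -0.93 to 0.56. For C1qa the values were 0.78 (95% interval -1.77 to 3.32) and 0.29 (95% interval -2.25 to 2.84), with block intervals of -0.52 to 2.07 and -1.0 to 1.59.

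By class, the endothelial genes had a median log2 difference of -0.14 with LDL and -0.10 with oxLDL, beside -0.002 and -0.003 over all genes tested. With LDL, 8 of 16 were lower than Control within each of the 3 numbers (17.5% of all genes) and 0 were higher (17.9%). With oxLDL, 6 of 16 were lower within each number (14% of all genes). Egfl7 and Flt1 had an unadjusted p under 0.05 with the block for LDL against Control, at log2 differences of -0.25 and -0.35, and limma's adjusted p with the block was 0.24 and 0.308. The sum of endothelial genes under LDL was 1.01, 1.0 and 0.854 times Control in numbers 1, 2 and 3.

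LDL libraries had the higher mean log2 level in all 15 tested macrophage genes, beside 6662 of 13495 genes tested. The median log2 difference from Control was 0.28, beside -0.002 over all genes, and 8 of the 15 were higher within each of the 3 numbers, beside 17.9% of all genes. Of these, 0 passed the test. The highest of the differences was 0.78 in C1qa, and Csf1r, at 0.45, had limma's adjusted p = 0.293 with the block. With oxLDL the median was -0.01, with 6 genes above 0 and 9 below. Against LDL, oxLDL had the lower mean log2 level in all 15, at a median of -0.27, beside 6691 of 13495 genes tested. However, 0 of the 15 were lower with oxLDL than with LDL within each of the 3 numbers, beside 14.9% of all genes tested. The macrophage sum with oxLDL was 0.705, 0.438 and 1.31 times that with LDL in numbers 1, 2 and 3. The summed macrophage level with LDL was 1.56, 0.982 and 1.29 times Control in numbers 1, 2 and 3. With oxLDL it was 1.10, 0.43 and 1.68 times, and the direction differed between numbers.

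Of the melanocyte genes, 5 of 7 were higher with LDL within each number. Among the tested ones it was 3 of 4, beside 17.9% of all genes tested. The summed level was 1.52, 1.27 and 1.98 times Control with LDL and 0.896, 0.822 and 2.43 times with oxLDL. Dct had a log2 difference of 1.02 (95% interval -0.27 to 2.30) for LDL, with limma's adjusted p = 0.344 under the block. Tyr and Sox10, both too low to test, were the only 2 of the 40 genes whose 3 LDL libraries all lay above the 3 Control libraries. The lowest LDL value exceeded the highest Control value in Tyr by 0.25 against 0.20 TPM and in Sox10 by 0.64 against 0.60 TPM, and beside them 5.61% of all genes tested were separated in this way.

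**Figure D5:**
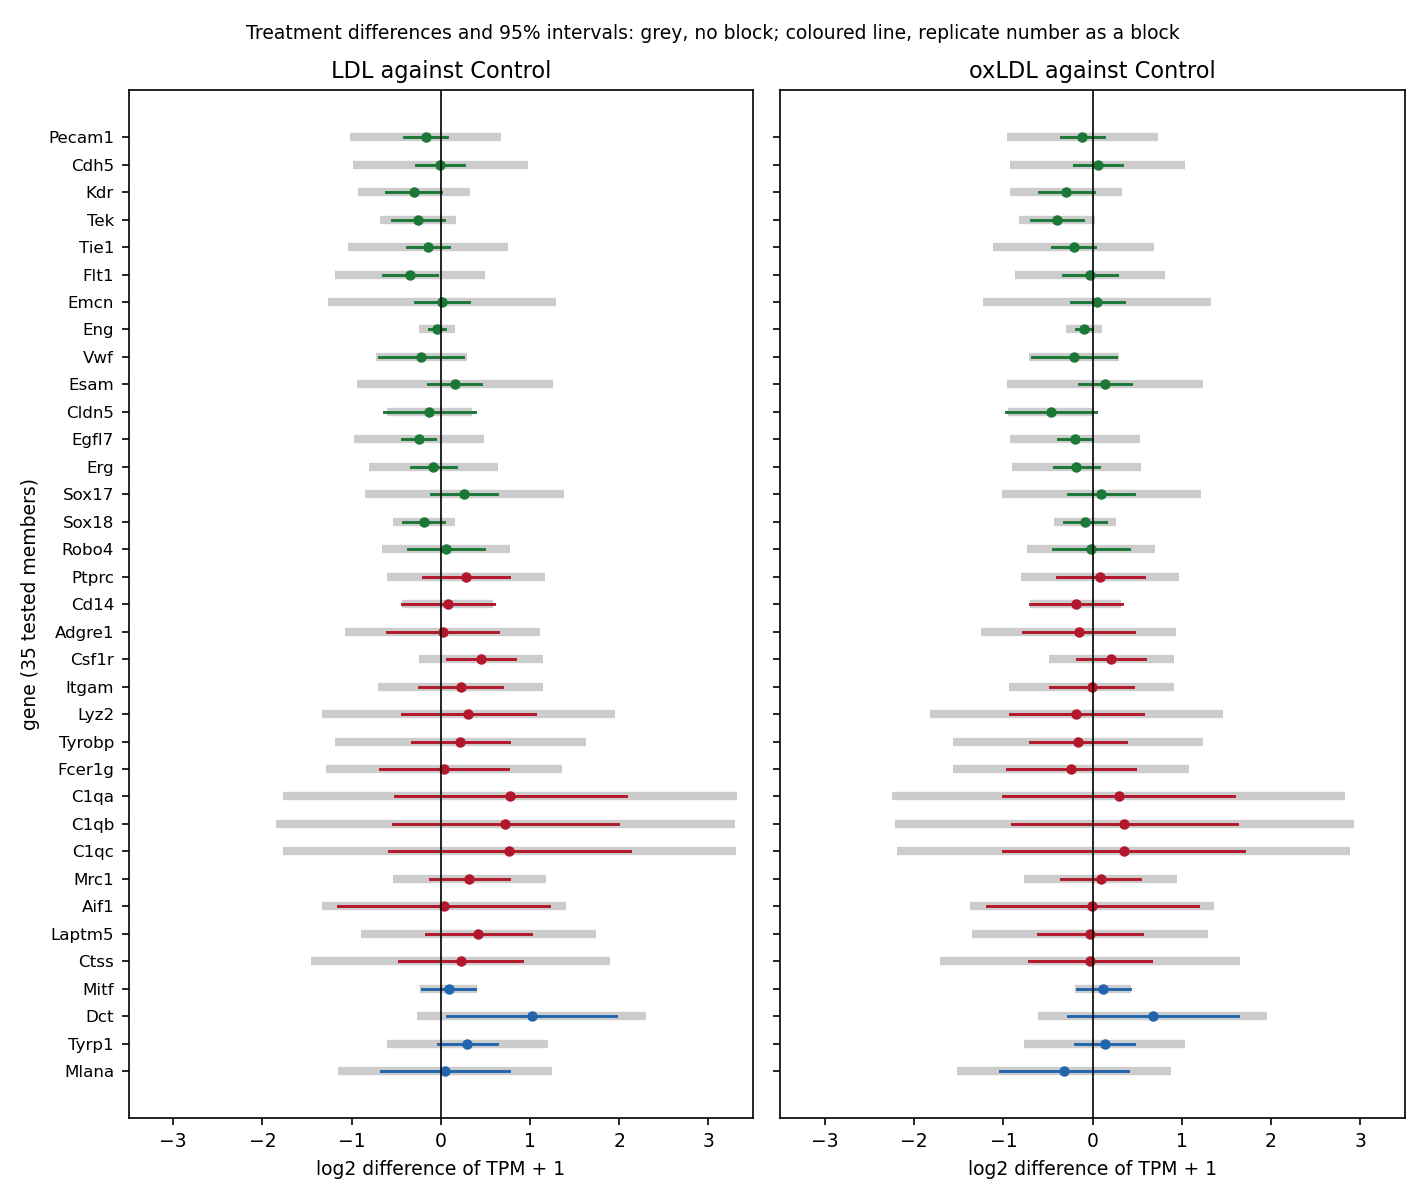
Log2 differences of LDL and of oxLDL from Control for the 35 tested markers, as points coloured by class, with 95% intervals from the fit without the replicate block in grey and with it as coloured lines. Both panels share the Control libraries, and 0 of 35 genes passed limma's adjusted threshold in either.

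Wider lists for the same cell types were read beside the 40 genes. Of 30 further endothelial genes 25 could be tested and 13 varied with replicate number, beside 11.7% of all genes tested. Nos3, the endothelial nitric oxide synthase, was at 13.4, 15.2 and 14.1 TPM with number 1, 4.12, 4.51 and 5.00 TPM with number 2 and 6.32, 5.82 and 5.70 TPM with number 3. Its log2 differences of numbers 1 and 3 from number 2 were 1.46 and 0.33 (adjusted p = 0.00234). The corresponding values were 1.33 and 0.19 for the matrix protein gene Mmrn2, 1.27 and 0.31 for the lectin-like receptor gene Cd93 and 1.05 and 0.48 for Plvap, which forms the diaphragms of fenestrae and caveolae. Over the 25 the median differences were 0.54 and 0.27, and the sum of all 30 was 1.33 and 1.05 times number 2. Cd34, the highest of the list, did not pass (limma's F test, adjusted p = 0.6), at 0.03 and -0.09. Of the 13 called, 12 had number 3 above number 2, and Ecscr had it below, at -0.08 (adjusted p = 0.00957). Cd34 and Ecscr were named after their values were seen. For treatment 0 of the 25 passed without the block, beside 0.333, 0.0148 and 0.104% of all genes tested in the 3 comparisons. With the block Acvrl1, the BMP receptor ALK1 that works with Eng, passed for LDL against Control, beside 0.852% of all genes tested. Its log2 difference was -0.54, with limma's adjusted p = 0.0495 with the block and 0.286 without. Acvrl1 was chosen after its values were seen.

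Of 32 further macrophage and leukocyte genes 28 were tested and 14 varied with number, beside 11.7% of all genes tested. The differences of numbers 1 and 3 from number 2 were 1.32 and 1.73 in the SLAM receptor gene Cd84, 1.52 and 1.62 in Cd52, 1.22 and 1.58 in the Fc receptor gene Fcgr3 and 1.38 and 1.5 in Ms4a7, a gene of resident macrophages. In all 4 number 3 lay at least as high as number 1 by mean log2 level. Irf8, which also passed limma's F test (adjusted p = 0.0162), had number 1 above number 3, at 1.135 and 0.694. Cd53, the highest of the list by mean TPM, did not pass (adjusted p = 0.676), at -0.13 and -0.10. Irf8 and Cd53 were named after their values were seen. Over the 28 the median differences were 0.63 and 0.98. By treatment limma called 0 of the 28 without the block, beside 0.333, 0.0148 and 0.104% of all genes tested in the 3 comparisons. It also called 0 with the block, beside 0.852, 0.126 and 0.259%. Without the block 1, 1 and 0 had an unadjusted p under 0.05 in the 3 comparisons, beside 6.65, 3.86 and 3.91%.

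Among 22 further melanocyte and glial genes 14 were under 1 TPM, and 4 of the 8 tested varied with number, beside 11.7% of all genes tested. Ednrb, the endothelin receptor that melanocyte precursors need and that endothelial cells also make, differed by 1.65 and 0.50. Kit, the receptor of stem cell factor on melanocytes and mast cells, differed by 1.3 and 0.16. In these 2 genes, as in 10 of the 16 endothelial genes, number 1 lay above all other libraries. Gpnmb, a glycoprotein of melanosomes and of macrophage lysosomes, was at 237, 234 and 222 TPM with number 1, 122, 125 and 106 TPM with number 2 and 201, 193 and 198 TPM with number 3, and S100b differed by 0.52 and 0.28. Limma's adjusted p was 0.00357, 0.00853, 0.00175 and 0.00894 in the same order.

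Of 15 genes for ligands of receptors on these cell types, 13 averaged at least 1 TPM. Gdf2 and Bmp10 averaged 0.0133 and 0.00111 TPM. Csf1, the ligand of Csf1r, was the highest of 15 ligand genes at a mean of 1019 TPM, with libraries from 804 to 1238 TPM (chosen after its values were seen). Of 13 ligands tested 6 varied with replicate number, beside 11.7% of all genes tested, but not all in one direction. Pgf, a ligand of Flt1, was higher in number 1 than in number 2 by 1.08, while Vegfa, the main ligand of Kdr, and Vegfc were lower in number 1, at log2 differences of -0.49 and -0.47. Kitl, the ligand of Kit, was also lower in number 1, at -0.42 from number 2 and -0.71 from number 3. Their adjusted p values by limma's F test were 0.0128, 0.0417, 0.0424 and 0.0107. Treatment comparisons gave 0 of 13 calls without the block, beside 0.333, 0.0148 and 0.104% of all genes tested. With the block the calls were also 0 of 13, beside 0.852, 0.126 and 0.259%.

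Of the 20 interstitial markers 5 varied with replicate number by limma's F test, beside 11.7% of all genes tested. Number 1 exceeded number 2 in Sparc, Thy1, Postn and Fn1 and lay below it in Serpinf1, at a log2 difference of -0.53 (adjusted p = 0.0322). The last 4 were named after their values were seen. Sparc was at 3690.3, 3624 and 3551 TPM with number 1, 2474, 2473 and 2405 TPM with number 2 and 2394, 2305 and 2512 TPM with number 3, higher in number 1 by 0.56 than in number 2 (adjusted p = 0.00357), and S100a4, Vim and Bgn did not pass (adjusted p = 0.0604, 0.483 and 0.369). Their part in the differences of the endothelial and macrophage genes was not tested. The median log2 difference of number 1 from number 2 over these 20 genes was 0.17, beside 0.91 for the 16 endothelial and 1.03 for the 15 tested macrophage genes. Postn, however, differed by 1.59 (adjusted p = 0.00367), above the highest endothelial difference, 1.57 in Emcn. Its levels were 173, 143 and 137 TPM with number 1 and 54.7, 41.9 and 52.2 TPM with number 2. With number 3 Postn was at 113, 62.6 and 81.5 TPM, so it too ranked the numbers 1, 3, 2 without overlap. The 8 cardiomyocyte genes summed to 47.1 ± 16.1, 15.4 ± 4.44 and 16.3 ± 7.19 TPM in numbers 1, 2 and 3 (SD, n = 3 each), with 7 of them averaging at most 0.529 TPM, and their part in the result was not tested.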

How the data were processed

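RNA was sequenced from 9 libraries of cultured valvular interstitial cells, 3 per treatment. Per the labels' protocols, 50 ng of total RNA was amplified as cDNA, and the library kit keeps no strand (100 bp pairs). The authors deposited TPM values, and the submitters' processing notes name STAR, RSEM 1.3.1 and mm10. Their annotation is not given in these sources. Columns summed to 999998.81 to 1000000.43 TPM, 0 columns were left out, and TPM keeps no depth, so no counting interval is given and an exact 0 can be a failed estimate.

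Values were analysed as log2(TPM + 1) for 13495 genes averaging 1 TPM or more (38315 left out). Treatments were compared with limma 3.58.1 in R 4.3.3 (empirical Bayes with a mean-dependent prior, two-sided, 6 residual degrees of freedom), and p was adjusted by Benjamini-Hochberg over all genes tested at a threshold of 0.05. Replicate number, taken from the titles, was tested with an F test of its coefficients in a fit of treatment and number (4 residual degrees of freedom). The same fit gives the values with the replicate block. Its pairing rests on the correlations given in the report and not on a stated shared culture or day. A permutation of 3 against 3 libraries cannot give a p under 0.1, so none was run. The scripts were tested on simulated data. The highest correlation between 2 libraries was 0.988, and no library was merged.

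All 40 genes are accounted for. Those of at least 1 TPM are given in every library, with the highest 2 and the defining genes of each class below that. From each further list up to 4 genes were named, called ones first by size of difference, and from the interstitial list the 4 highest by TPM. The genes and lists were chosen with earlier results of these data known. Gene positions and exon overlaps came from GENCODE M21 (GRCm38), and promoter sequences from RefSeq (GRCm38.p6). Alternatives were other pseudocounts, no filter, median-ratio and quantile scaling, a prior without trend, the replicate block, sums without the leading gene and leaving out each library in turn.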

Additional observations from a re-analysis of the deposited data

How the results depend on the processing

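Called differences by replicate number kept their sign under every alternative run, but their count depended on the fit. Of the 35 tested genes, 24 passed as reported, 5 to 27 passed with 1 library left out, and 10 passed when every gene above 0 in at least 1 library was tested. The other settings gave between 16 (prior without trend, with 5 macrophage genes) and 24. Over all genes, 1580 passed as reported, 121 to 1980 with 1 library left out, 501 without the filter and 915 with the prior without trend. Of 525 single-gene values under the alternatives, 384 kept their side of the threshold, 126 lost it, 4 gained it and 11 changed sign without being called.

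For treatment, 0 of 35 genes passed under all alternatives in the 3 comparisons. With the replicate number as a block, which pairs the samples, the counts were 0, 0 and 0. Over all genes the 3 comparisons gave 45, 2 and 14 calls as reported and 115, 17 and 35 with the block, and 4 to 37, 1 to 3 and 1 to 10 with 1 library left out.

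Summed levels moved mainly when the leading gene was left out. Without Eng the endothelial sum was 386, 362 and 366 TPM in Control, LDL and oxLDL, and 542, 245 and 326 TPM in numbers 1, 2 and 3. Without Lyz2 the macrophage sum was 184 TPM in Control and 253 TPM with LDL, and 274, 89.3 and 313 TPM in numbers 1, 2 and 3. Without Dct the melanocyte sum was 8.76 TPM with LDL, and 9.83, 5.21 and 8.40 TPM in numbers 1, 2 and 3. Median-ratio scaling put the endothelial sum of number 1 at 968 TPM. The sums by replicate number, and the percentages of the interstitial sum without Eng or Lyz2, were added as alternatives after seeing the data. The cause of these movements, beyond fewer samples or genes in a sum, was not tested. What depth limits cannot be said, since TPM keeps none.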

Other observations

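Lists for cell types outside the 3 classes were read in the same way. Of 8 cardiomyocyte genes 7 averaged at most 0.529 TPM, while Tnnt2, the cardiac troponin T gene, was at 63.0, 37.6 and 32.4 TPM in Control, LDL and oxLDL of number 1, at 9.96, 13.6 and 17.7 TPM in number 2 and at 23.3, 11.8 and 9.59 TPM in number 3. Number 1 lay above all other libraries, by log2 differences of 1.60 from number 2 and 1.55 from number 3 (limma's F test, adjusted p = 0.0349). Krt18, a keratin of simple epithelia, was higher in number 1 by 0.67 than in number 2 and by 0.91 than in number 3 (adjusted p = 0.0206). Of 6 tested smooth muscle genes only Lmod1 passed, beside 11.7% of all genes tested, at -0.38 and -0.53 for number 1 against numbers 2 and 3 (adjusted p = 0.0342).

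Thy1 was at 443, 389 and 507 TPM in Control, LDL and oxLDL of number 1, 218, 212 and 300 TPM in number 2 and 268, 185 and 188 TPM in number 3. Postn, a matrix protein gene of valve and scar fibroblasts, differed by 1.59 between numbers 1 and 2 on the log2(TPM + 1) scale.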
